A study of Mus musculus with 2 samples.

Results

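The genes described here handle iron and copper in mouse liver or bind metals as metallothioneins. Of 10 genes named for this set (Mt1, Mt2, Hamp, Trf, Tfrc, Tfr2, Fth1, Ftl1, Slc40a1 and Cp), 7 had at least 1 probe set that the platform annotation assigned to that gene alone, and these 7 genes were read by 12 of the 12488 probe sets on the array. The dropped genes were Ftl1, whose 1 probe set is annotated to several genes, and Trf and Slc40a1, which are not analysed here. Total RNA of mouse liver, bought from a supplier, was hybridised to 2 single-colour Affymetrix arrays that form 1 group with no treatment. The labels name no strain, sex, age or number of animals. They give the same catalogue item for both samples, so the arrays may differ for technical reasons alone. Both titles read liver while the source field reads spleen. The design therefore allows a description of levels and of the spread between the arrays, with no comparison of conditions and no p-value.

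The liver is the main site of iron storage and the source of the hormone that sets iron entry into blood. Transferrin carries iron in plasma, the transferrin receptor Tfrc takes it into cells, ferritin stores it, and ferroportin (Slc40a1) is the exporter that hepcidin (Hamp) removes from the cell surface. Ceruloplasmin (Cp) carries copper in plasma and oxidises iron, and metallothioneins bind zinc, copper and cadmium through their many cysteines. The zinc-sensing factor Mtf1 drives Mt1 and Mt2 through short metal response elements, whereas bone morphogenetic protein (BMP) and interleukin-6 signals drive hepcidin through a BMP response element and a STAT site.

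The start site regions of the metallothionein and hepcidin genes are shown because these motifs are the known route of their control. In the RefSeq annotation of assembly GRCm38.p6, Mt2 and Mt1 are neighbouring coding genes on chromosome 8, and Hamp lies beside its copy Hamp2 on chromosome 7. Each line gives 250 bases upstream of the annotated start, 5′ to 3′ on the gene's strand, with matches to the metal response element core in capitals (TGCACNC or TGCGCNC on either strand).
Mt1 at chr8:94178839-94179088, plus strand: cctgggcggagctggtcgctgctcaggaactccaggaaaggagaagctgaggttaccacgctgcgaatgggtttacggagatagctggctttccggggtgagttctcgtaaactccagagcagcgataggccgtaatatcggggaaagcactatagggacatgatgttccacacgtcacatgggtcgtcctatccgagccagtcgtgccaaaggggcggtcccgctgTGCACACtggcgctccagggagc
Mt2 at chr8:94172368-94172617, plus strand: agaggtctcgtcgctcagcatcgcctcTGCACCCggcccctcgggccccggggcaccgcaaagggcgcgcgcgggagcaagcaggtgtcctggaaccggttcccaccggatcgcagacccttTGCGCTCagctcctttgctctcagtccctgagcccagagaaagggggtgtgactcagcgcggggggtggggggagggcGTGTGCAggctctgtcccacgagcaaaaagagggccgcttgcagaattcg

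Further cores lay just past the annotated starts, and the 30 bases that hold them follow, with the cores again in capitals.
Mt1 at chr8:94179089-94179118, plus strand: tcTGCACTCcgcccgaaaagTGCGCTCggc
Mt2 at chr8:94172618-94172647, plus strand: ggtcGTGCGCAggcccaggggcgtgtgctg
In the window of 250 bases before to 50 after the annotated start, Mt1 held 3 cores and Mt2 held 4. Whether the annotated starts are those used in liver was not tested, and cores outside the window were not counted. Of the 32851 RefSeq windows of this length, 25.7% held at least 1 core, 1.97% at least 3 and 0.517% at least 4. Over their upstream 250 bases, cores included, the pair had 126 identical bases in 270 aligned columns (46.7%). No unrelated windows were aligned for comparison.

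The proximal 130 bases of Hamp and Hamp2 are set side by side because the genes are close copies. The array annotation assigns a probe set to Hamp. Likeness of bases upstream of the start does not show which transcripts that set reads. Capitals mark the BMP response element core (GGCGCC) and the STAT core (TTCNNNGAA).
Hamp at chr7:30944030-30944159, minus strand: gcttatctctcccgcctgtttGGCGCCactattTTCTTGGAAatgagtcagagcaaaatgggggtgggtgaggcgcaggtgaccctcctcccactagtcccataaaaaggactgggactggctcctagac
Hamp2 at chr7:30924182-30924311, minus strand: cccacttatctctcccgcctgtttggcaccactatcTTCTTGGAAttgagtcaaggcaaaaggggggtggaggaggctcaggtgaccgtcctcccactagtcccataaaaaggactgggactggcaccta
The upstream 250 bases of these genes were identical at 227 of 253 aligned columns (89.7%). The Hamp window held both cores, as did 0.645% of all windows. The Hamp2 window held the STAT core, and the letters of the BMP core were not in it. Among all windows, 11.9% held the BMP core and 8.30% the STAT core.

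**Figure D1:**
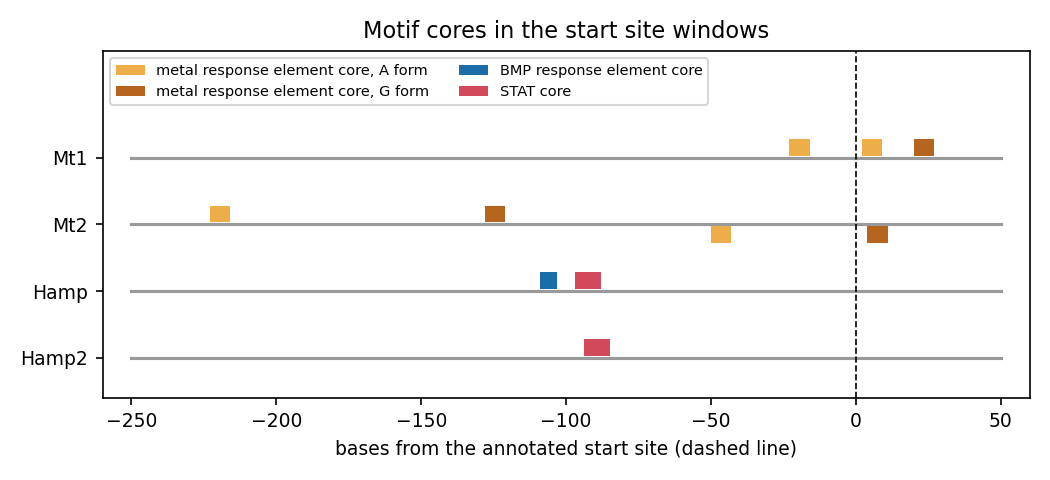
Matches to motif cores from 250 bases before to 50 bases after the annotated start of Mt1, Mt2, Hamp and Hamp2. Boxes above a line lie on the gene's strand and boxes below it on the other strand. Mt1 has 3 metal response element cores within 23 bases upstream and 27 bases downstream of its start, Mt2 has 4 that begin 223 bases upstream, and Hamp has its BMP and STAT cores 109 to 89 bases upstream.

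None of these cores was found in the windows of Tfr2 (3 annotated starts), Fth1 (2) and Cp (2). Of the 2 Tfrc windows, 1 held a pair of overlapping metal response element cores and a BMP core. A match is a description of letters, and no measurement of factor binding was used here.

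All 7 measured genes were above background on both arrays, Tfrc through 1 suffixed probe set alone. With a gene's sets averaged, without suffixed sets, or with the highest background gene as the threshold, Tfrc was not above it and 6 of the 7 genes were. Background here is the 95th percentile of 117 genes typical of brain, testis, retina and striated muscle, which was 481.9 on replicate 1 and 390.2 on replicate 2, and 5 of those 117 genes exceeded it on both arrays. Among the 8251 named genes, 31.0% were above it on both arrays. The median position of the 7 genes was the 98.4th percentile of signal, where the median of all named genes lies at 50. Probe brightness depends on probe sequence, so a percentile places a gene within the array's signal and is no order of transcript abundance. In RNA of whole tissue, fewer cells of a type and less RNA per cell cannot be told apart.

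Mt1 and Mt2, the widely expressed metallothioneins, sat at the bright end of both arrays and hardly differed between them. The probe set of Mt1 (93573_at) gave signals of 25259 on replicate 1 and 25173 on replicate 2, a mean of 25216 ± 61.2 (SD, n = 2 arrays). That of Mt2 (101561_at) gave 23969 and 23538, a mean of 23753 ± 304.9. Mt1 was the 32nd brightest named gene on replicate 1 and the 35th on replicate 2, and Mt2 the 36th and 39th. On replicate 1 their signals were 52.4 and 49.7 times the background threshold. Mt1 differed between the arrays by a log2 of 0.00084 and Mt2 by -0.02 (replicate 2 over replicate 1, after the median difference of the brighter 50% of probe sets was subtracted).

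The other metallothioneins of the array gave much lower signals, although different probe sets do not compare in level. Mt3, known mainly from brain, gave 1305 on replicate 1 and 1452 on replicate 2, above background on both. Whether the Mt3 probe set also reads the transcripts of Mt1 or Mt2 was not tested. Mt4, known from stratified epithelia, gave 34.0 and 59.8, below background on both. Mtf1 gave 141.5 and 334.7, also below background on both arrays. These 3 genes were chosen for mention after their values were seen.

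Hepcidin, the peptide hormone that lowers iron export, was bright on both arrays. The probe set assigned to Hamp (104588_at) gave 11002 on replicate 1 and 9506 on replicate 2, a mean of 10254 ± 1058 (SD, n = 2 arrays) at the 98.4th percentile. The difference was a log2 of -0.21, against an SD of 0.18 for the log2 differences of the brightest 10% of probe sets. Whether this probe set also reads the transcript of Hamp2 was not tested.

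Of the receptors for transferrin, Tfr2 was close between the arrays and the brightest probe set of Tfrc was not. Tfr2, the hepatocyte receptor that senses iron-loaded transferrin, gave 3114 on replicate 1 and 3269 on replicate 2 (160674_at), a mean of 3191 ± 109.9 (SD, n = 2 arrays) and a log2 difference of 0.08. Tfrc, the receptor that most cells use for iron uptake, gave 2382 and 887.2 in its brightest probe set (103958_g_at), a mean of 1634 ± 1057. That is 2.68 times as much signal on replicate 1 as on replicate 2, and a log2 difference of -1.42 after the shift.

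The Tfrc difference stood apart from the general agreement of the arrays. Of the 12422 non-control probe sets, 18.3% differed over 2-fold (10.4% higher on replicate 1 and 7.87% higher on replicate 2), most of them at low signal. Among the 9 non-control probe sets of the 7 genes, 1 did, the suffix g set of Tfrc. Among the 3136 non-control probe sets above background on both arrays, 4 differed over 2-fold (0.128%), and the largest of these 4 differences was that of Tfrc. The other 3 sets, named after their values were seen, were those of Usf1 (1565 and 764.9 on replicates 1 and 2), Utp20 (915.4 and 450.5) and Hdgf (1497 and 3072). This difference was already known when the genes were chosen, and with 1 array on each side it has no replicate check.

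Tfrc was read by 4 more probe sets, 3 of them control sets that Affymetrix places along the transcript, and none of these 4 was above background on either array. The plain set (103957_at) gave 77.0 on replicate 1 and 71.4 on replicate 2. The control sets gave 158.5 and 86.3 at the 3′ end, 20.3 and 10.9 in the middle and 61.6 and 26.1 at the 5′ end. All 5 sets of Tfrc were lower on replicate 2, with log2 differences from -1.42 to -0.10. Over 2-fold differed 2 of the 5, the suffix g set and the 5′ control set (log2 difference -1.23). The share of sets over 2-fold was taken within 10 equal-sized bins of the non-control sets by signal. It was higher in the bins of the 4 dim sets than in the brightest bin, and was 18.3% over all non-control sets. The share was 29.6% in the bin of the plain set, 12.8% in that of the 3′ control set, 44.5% in that of the middle one and 41.8% in that of the 5′ one. In the brightest bin, which holds the suffix g set, it was 0.161%, or 2 of 1243 sets.

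Red cell precursors take up iron through Tfrc, so their markers are given beside it. Of 10 measured red cell genes, 3 were above background on both arrays, against 31.0% of all named genes, and the summed signal of the 10 was 33687 on replicate 1 and 33779 on replicate 2. On replicate 2, 5 of the 10 were higher and 5 lower. Over 2-fold differed 3 of the 10, against 14.0% of all named genes, and none of these 3 was above background on both arrays. The 3 above background were the alpha-globin gene Hba-a1 (24075 and 24908), which makes up most of the sum, the beta-globin gene Hbb-b2 (6511 and 6005) and the erythroid haem synthesis enzyme Alas2 (2164 and 1730). Hba-a1 was higher on replicate 2, with a log2 difference of 0.05. Hbb-b2 and Alas2, named to complete that count, were lower, with differences of -0.11 and -0.32. The lowest of the list was the transcription factor Tal1 (72.6 and 29.3). The part of these cells in the Tfrc value was not tested.

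**Figure D2:**
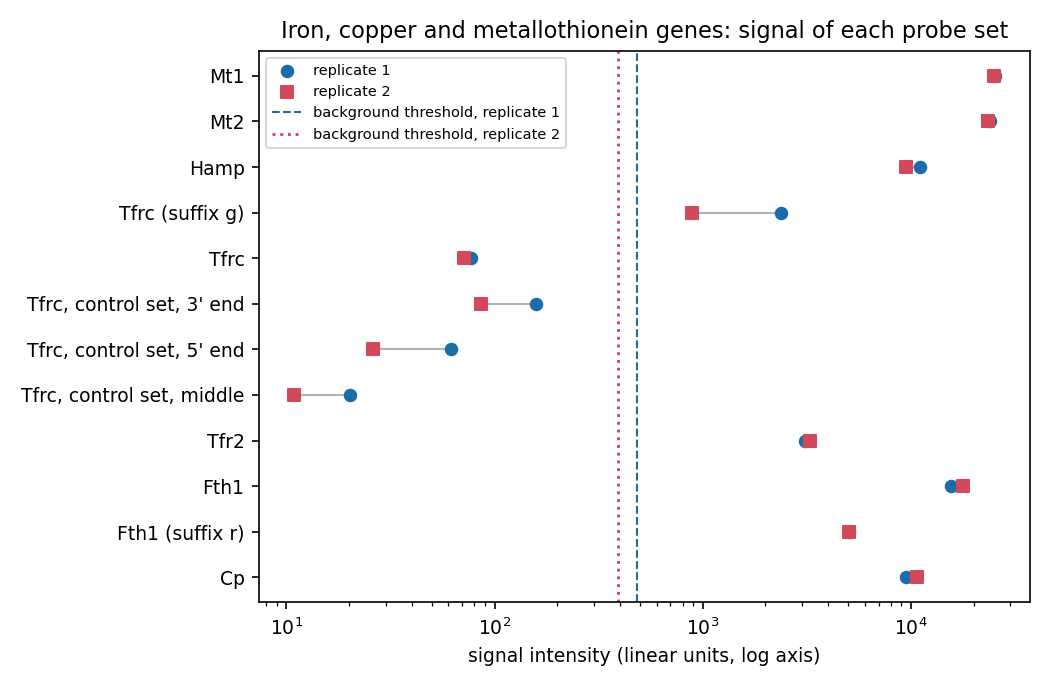
Signal of the 12 probe sets of the 7 genes on replicate 1 (circles) and replicate 2 (squares), on a log axis, with the background threshold of each array as a vertical line. Each pair of points nearly coincides except in 4 of the 5 Tfrc sets, and 4 Tfrc sets lie left of the thresholds.

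**Figure D3:**
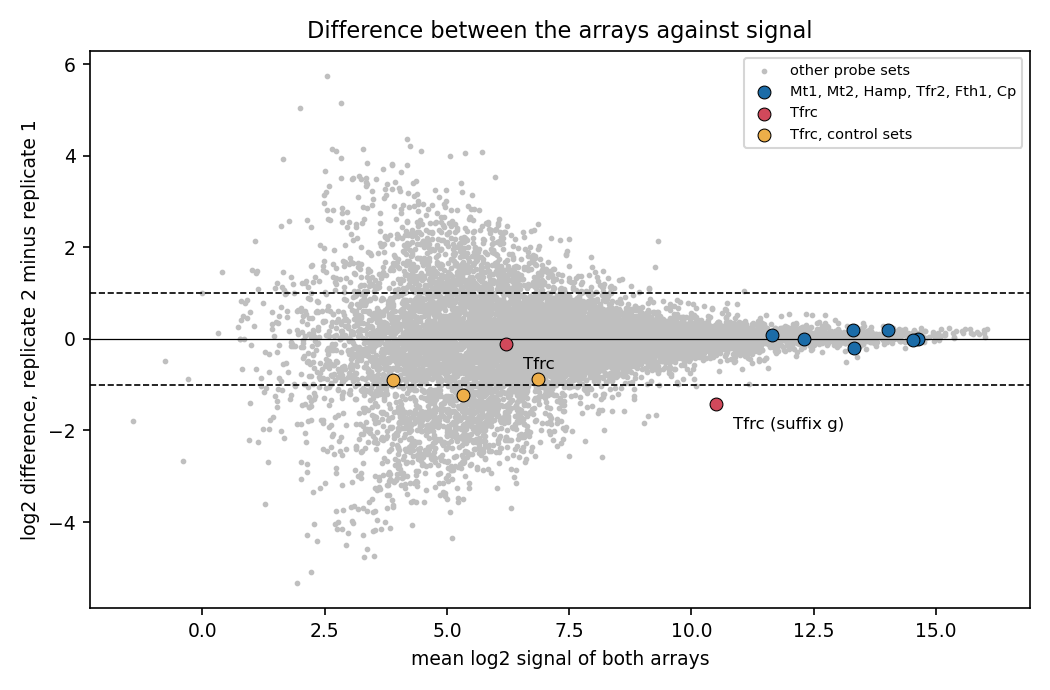
Log2 difference between the arrays (replicate 2 minus replicate 1) against mean log2 signal for all non-control probe sets, with the sets of the 7 genes coloured and 2-fold limits dashed. The spread narrows as signal rises, and the suffix g set of Tfrc at -1.42 lies below the cloud at its signal.

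Ferritin heavy chain and ceruloplasmin were bright and close between the arrays. Fth1, the ferritin subunit that oxidises iron for storage, was read at 15643 on replicate 1 and 17724 on replicate 2 by its plain probe set (94794_at), a mean of 16684 ± 1471 (SD, n = 2 arrays). Its other set, of suffix r (161913_r_at), gave 5042 and 5015. The sets of Fth1 agreed that the gene was above background, and their log2 differences between the arrays were 0.19 and -0.0019. Cp (92851_at) gave 9424 and 10684, a mean of 10054 ± 890.7, with a log2 difference of 0.19. Apart from Tfrc, the 7 probe sets of the other 6 genes differed by at most 1.16-fold without the shift, in Hamp.

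The wider metal pathways were described through 6 lists of related genes, of which 75 were measured and 33 (44.0%) were above background on both arrays, against 31.0% of all named genes. Their median percentile was 58.4, and 0 of the genes above background differed over 2-fold between the arrays, while 5 of the 75 did in all. Among all named genes 14.0% differed over 2-fold. Below, the brightest and the lowest gene of a list are those by mean percentile of both arrays, and the order can differ on either array alone.

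Genes that control hepcidin lay near the array as a whole. Of 21 measured, 6 were above background (28.6%, against 31.0% of all named genes), and the median percentile was 51.3, against 50 for all. The brightest were the liver transcription factor Cebpa (9564 on replicate 1 and 10542 on replicate 2), the interleukin-6 receptor Il6ra (1099 and 1255) and its downstream factor Stat3 (1011 and 1244). The other Stat3 set gave 863.0 and 783.0, lower on replicate 2. Hfe, a partner of the transferrin receptors that is mutated in haemochromatosis, gave 527.7 and 552.0 and was above background on both arrays; it was picked after its value was seen. The lowest was the BMP receptor Bmpr1a at 16.7 and 10.5. The ligand Bmp6, which endothelial cells of the liver make, gave 103.0 and 64.4, below background, and was likewise picked afterwards.

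Of 13 measured genes of iron uptake and storage, 4 were above background (30.8%), and the median percentile was 55.0. Pcbp1 (4155 and 4416) and Pcbp2 (3312 and 3383) encode iron chaperones that also bind RNA, and Lcn2 (2524 and 2222) a protein that traps bacterial iron carriers. The other set of Lcn2, of suffix r, gave 215.0 and 256.7, below background. Fbxl5, which targets an iron regulatory protein for breakdown, was the lowest at 62.9 and 41.6 from 1 probe set, of suffix r. The iron regulatory proteins that act on ferritin and Tfrc messages, Aco1 (285.6 and 209.1) and Ireb2 (305.4 and 243.4), were below background on both arrays, and were chosen after their values were seen.

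Salvage of haem and haemoglobin lay at the bright end, with 5 of 7 measured genes above background (71.4%) and a median percentile of 95.5. The haemoglobin scavenger Hp gave 41136 on replicate 1 and 46160 on replicate 2, the haem carrier Hpx 36092 and 37956, and Ambp, the precursor of the haem-binding alpha-1-microglobulin, 26949 and 26874. The other Hpx set, of suffix f, gave 11932 and 12740. Blvra, a biliverdin reductase, was the lowest at 246.2 and 150.3. Of 7 genes of mitochondrial iron use, 4 were above background (57.1%). The haem synthesis enzyme Alas1 gave 22285 and 24056, the ferredoxin Fdx1 8404 and 10152, and the sulfur donor Nfs1 of iron-sulfur cluster assembly 1106 and 1330. The other Fdx1 set, of suffix i, gave 19.4 and 13.2. The lowest was Fech, the enzyme that inserts iron into haem, at 80.4 and 93.0 from 1 probe set, of suffix r.

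Copper genes were above background in 8 of 11 cases (72.7%), with a median percentile of 92.1. The copper and zinc enzyme Sod1 gave 14144 on replicate 1 and 17086 on replicate 2, the copper chaperone Atox1 4907 and 4657, and the copper importer Slc31a1 2605 and 2779. The other Slc31a1 set gave 1591 and 1293, lower on replicate 2. Atp7b, the pump that loads copper onto ceruloplasmin in hepatocytes, was the lowest at 55.3 and 138.6 from 1 probe set, below background on both arrays. Of 16 zinc-related genes (zinc transporters, zinc enzymes, Mtf1 and other metallothioneins), 6 were above background (37.5%), and the median percentile was 48.8. The zinc enzyme Car3 gave 12573 and 12912, the zinc transporter Slc30a3 1649 and 1290 and the zinc importer Slc39a4 1401 and 1407. The other Slc30a3 set, of suffix i, gave 19.5 and 20.3. The Slc39a4 values above are from a set of suffix r, and the plain set of Slc39a4 gave 1154 and 1155. The lowest was the zinc importer Slc39a6 at 50.7 and 34.6.

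**Figure D4:**
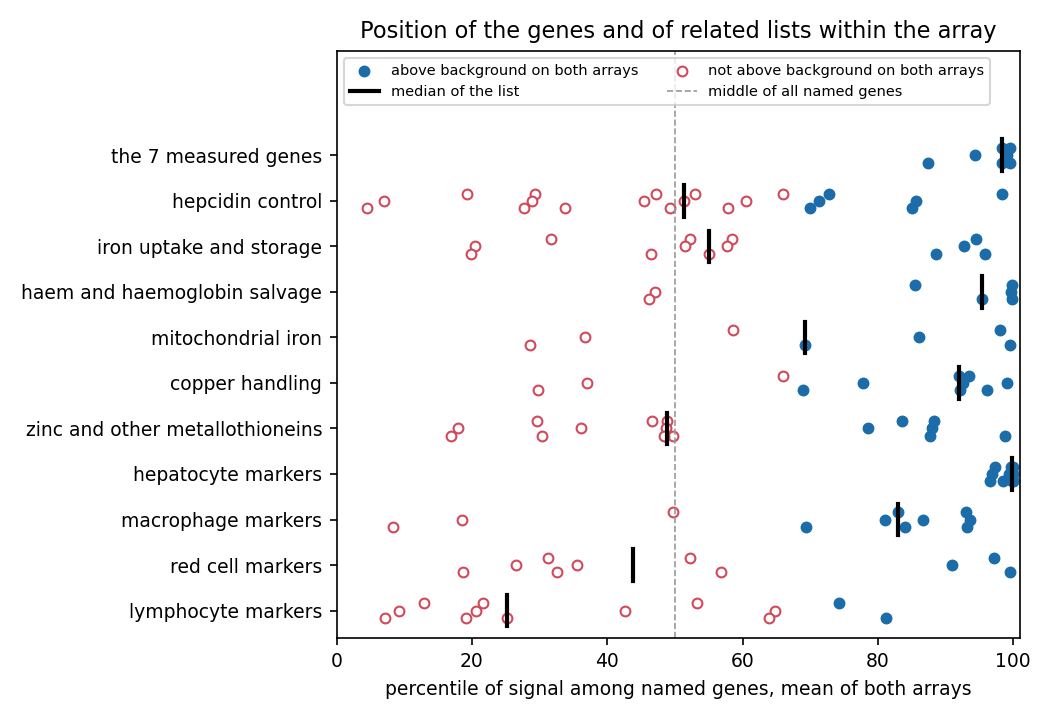
Percentile of signal among the 8251 named genes (mean of both arrays) for the 7 genes, the 6 related lists and 4 marker lists, 1 point per gene, with the list median as a black bar. Filled points were above background on both arrays. The median of the 7 genes (98.4) lies between those of hepatocyte markers (99.78) and haem salvage (95.5), and lymphocyte markers have the lowest (25.2).

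The tissue label was set against cell type markers, where 31.0% of all named genes were above background on both arrays. All 14 measured hepatocyte markers were above background, from Alb (64627 and 65800) to Ttr (5372 and 5099), with summed signals of 470172 on replicate 1 and 507008 on replicate 2. Of 11 macrophage markers 8 were above it, from C1qc (2541 and 2986) down to Marco at 23.6 and 18.8, with sums of 12641 and 12789. Of 13 lymphocyte markers 2 were above it, Zap70 (834.3 and 880.5) and Ighm (629.6 and 589.7, named to complete that count), and the lowest was Cd8a at 22.2 and 15.4, with sums of 2863 and 3189. The other sets of Zap70 gave 427.1 and 459.0, and 188.5 and 123.4. Ighm had 16 sets, and the values given are those of the brightest. No marker was listed at 0, since all values of the table are above 0. Hepatocyte markers were thus bright and lymphocyte markers mostly dim in samples whose titles read liver and whose source field reads spleen. Over the whole array the median signal was 163.2 and 157.7, and the trimmed mean, without the 2% of sets at either extreme, was 500.5 on both. With only 2 arrays, the precision of every value is limited by their number.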

How the data were processed

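The deposited table gives the intensity of each probe set on each single-colour array, on a linear scale. How the authors made these intensities (software, summary method, background correction, scaling, detection calls) is not given in the sources used here. The equal trimmed means would follow from global scaling to a common target. Scanner files were not used here. Array controls make up 66 of the 12488 sets. The annotation of the platform names 1 gene for 10855 sets, several for 396 and none for 1237, and 10839 of the 10855 matched RefSeq by gene identifier. The array annotation names no build, so coordinates are given only with the RefSeq sequences. A gene was read from the non-control set whose mean log2 signal was highest. Differences are log2 of replicate 2 over replicate 1, minus their median over the brighter 50% of non-control sets (-0.0058), and were called past 2-fold. There is 1 group, so no test was run. The values were not copies, with 16 identical between the arrays.

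The genes and lists were chosen with earlier results of these data known. Named were all measured genes of the set, the 3 highest and the lowest of each related list, and the highest and lowest of each marker list. Exceptions are stated. No genes of similar pattern are named, since 2 arrays of 1 group give no pattern across conditions. Simulated data were used to test the shift, the 2-fold calls among brighter sets and the percentiles of the brightest genes. The background threshold and the motif search were not tested in this way. Python 3.11.15, numpy 2.4.6, pandas 2.3.3 and matplotlib 3.10.9 were used.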

Additional observations from a re-analysis of the deposited data

How the results depend on the processing

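All 7 genes were above background with quantile normalization, on each array alone, and with thresholds at the 90th percentile of the background genes or at the median of all named genes. Tfrc was not above it when a gene's sets were averaged or without suffixed sets, nor on replicate 2 with the highest background gene as threshold, which left 6 of 7. The median percentile of the 7 genes moved from 98.4 by more than its spread between the arrays (SD 0.060) with the mean of probe sets (98.7) and without suffixed sets (98.6). On each array alone it was 98.5 to 98.6. The value of 98.4 is a median of percentiles averaged over both arrays, so the values of single arrays are a different summary. The related genes above background numbered 31 to 43 of those measured, against 33, except with the highest background gene, which left 21. Of the non-control probe sets of the 7 genes, 1 differed over 2-fold under every alternative run except without suffixed sets. That run removes the suffix g set of Tfrc and left 0 of 7. Levels were compared between settings for 39 of the genes named here. With the mean of probe sets, 10 of the 39 moved by more than their SD between the arrays. Of the 7 genes these were Tfrc, at 0.208 times its level, and Fth1, at 0.549 times. The lowest ratio among the 39 was that of Fdx1, at 0.0415. No paired analysis was possible because there is 1 group. Background correction could not be repeated from summarised intensities, which limits low signals most.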
